A study of Homo sapiens with 26 samples.

Results

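FOXA1, GATA3, TFAP2C, SPDEF and ELF5 encode transcription factors of the luminal cells of the breast, and binding of the estrogen receptor (ER) and the progesterone receptor (PR) around these 5 genes is described here. A site belonged to a locus when it overlapped the hg19 span of the gene extended by 100 kb on each side. The spans were chr14:38058757-38064325 for FOXA1, chr10:8096667-8117164 for GATA3, chr20:55204358-55214338 for TFAP2C, chr6:34505579-34524110 for SPDEF and chr11:34500342-34535331 for ELF5. The 5 windows held 102 of the 87206 sites in the 10 deposited lists.

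The sites come from ChIP-seq, which sequences the DNA pulled down with an antibody to a receptor, in T47D, an established human breast cancer line with both receptors, and in T47D cells labelled PR-deficient. Both were deprived of steroids for 48 h, then exposed for 45 min to 10 nM of the estrogen estradiol (E2), 10 nM of the progestin R5020, or 10 nM of each. ER and PR lists exist for each treatment of T47D cells, and ER lists for each treatment of PR-deficient cells. A further list comes from T47D cells given both hormones, in which ER and then PR was precipitated (reChIP). Each of the 26 samples is a group of its own, so spread between replicates is unknown and treatments or lines could not be tested against each other. Per the labels, the vehicle libraries had been subtracted, so the lists of an antibody within a line have a subtracted library in common. The sources used here do not give how PR was lost or whether the PR-deficient cells are 1 clone. Any further difference between the lines cannot be told apart from the PR status. Expression was not analysed here, so the luminal label was not checked against it. Read depth is not stated. A list held between 4014 and 19220 sites.

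FOXA1 is a forkhead protein that opens closed chromatin and is known to mark the places where ER binds in breast cells. GATA3 is a zinc-finger factor needed for luminal identity, and TFAP2C, or AP-2 gamma, is a further factor found at many ER sites. SPDEF and ELF5 belong to the ETS family. SPDEF is linked to luminal and secretory cells, and ELF5 drives the milk-producing alveolar lineage and is induced by progestins in the mammary gland.

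Of the 5 genes, 3 had a site within 1 kb of the start: FOXA1, GATA3 and TFAP2C. The promoters of FOXA1 and GATA3 are shown because ER of PR-deficient cells was listed there. They run from 250 bases before to 50 bases after the start, as RefSeq gives them on GRCh38.p14, chr14:37595200-37595499 on the minus strand and chr10:8054438-8054737 on the plus strand. TFAP2C had no entry. The sites are on hg19 and were not converted. The RefSeq span of FOXA1 is 129 bp longer than the hg19 span used here. Of 6 RefSeq promoters of GATA3, the one shown lies closest to the hg19 start, since its distance to the end of the gene differs by 13 bp from the hg19 length. Capitals mark motif matches on either strand.
FOXA1: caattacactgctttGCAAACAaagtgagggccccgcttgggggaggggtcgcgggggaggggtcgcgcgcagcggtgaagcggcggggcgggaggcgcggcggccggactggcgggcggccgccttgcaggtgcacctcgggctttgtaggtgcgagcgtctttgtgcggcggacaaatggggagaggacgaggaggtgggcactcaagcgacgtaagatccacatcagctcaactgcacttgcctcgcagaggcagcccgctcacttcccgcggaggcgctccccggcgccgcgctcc
GATA3: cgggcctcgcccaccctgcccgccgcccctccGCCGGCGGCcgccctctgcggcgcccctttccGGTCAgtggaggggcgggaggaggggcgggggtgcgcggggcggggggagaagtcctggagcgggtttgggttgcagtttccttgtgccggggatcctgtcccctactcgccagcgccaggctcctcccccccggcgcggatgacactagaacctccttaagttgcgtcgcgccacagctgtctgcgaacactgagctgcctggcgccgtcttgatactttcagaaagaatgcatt

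In FOXA1 the capitals are a forkhead motif, TGTTTGC, read on the opposite strand from base 16. In GATA3 they are an AP-2 motif, GCCNNNGGC, at base 33, and GGTCA, a single repeat of the ER element, at base 65. Among 34796 RefSeq promoters of this length, 3.88% held TGTTTGC, 23.2% GCCNNNGGC and 37.3% GGTCA, each counted on both strands. The complete ER element (GGTCA and its reverse complement, 3 bases apart) was in neither promoter and in 0.0575% of all. The complete PR element (GNACA and its reverse complement, 3 bases apart) was in neither and in 0.391%. A further forkhead motif, TGTTTAC, was in neither and in 3.42% of all. The motif of GATA factors searched, AGATAA, was in neither and in 10.4%. Both promoters held 69.3% G and C. No 2 of these matches overlapped. A match is a description of the letters and not a binding site.

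ER of PR-deficient cells made up 43 of the 102 sites, PR of T47D 34, ER of T47D 16 and the reChIP 9. E2 gave 5 sites of T47D ER, R5020 gave 5 and both hormones 6. For PR the numbers were 8, 12 and 14 in the same order, and for ER of PR-deficient cells 18, 12 and 13. To read these counts against list length, the genome was divided into tiles of 220 kb, close to the mean window, and the 10581 tiles with a site in any list were kept. Tiles were not matched for gene content. At its mean density over these tiles, a list would place between 1.88 sites (T47D ER with E2) and 9.0 (T47D ER with both hormones) in the 1.09 Mb of windows. The count was above that number in 9 of the 10 lists, by 4.97 times for PR-deficient ER with E2, 4.9 times for PR-deficient ER with both hormones and 4.03 times for PR with R5020. It was below it for T47D ER with both hormones, the longest list, at 0.667 times. For the other lists the ratio lay between 1.95 for the reChIP and 2.8 for PR-deficient ER with R5020.

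**Figure D1:**
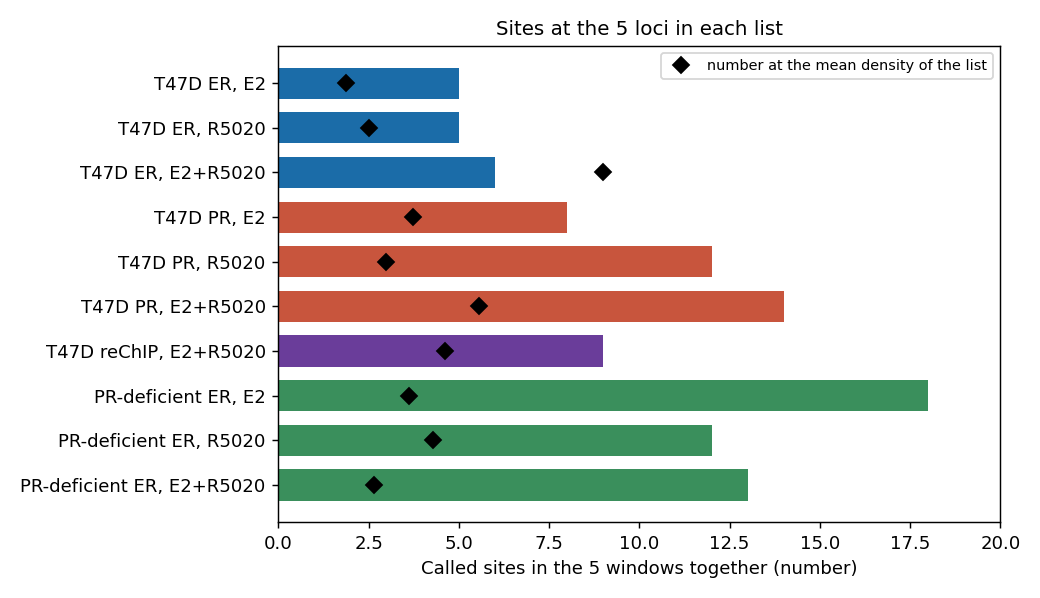
Number of called sites in the 5 windows together (x axis) for each list (y axis); bars are counts of 1 library each and diamonds the number at the mean density of the list. PR-deficient ER with E2 has the longest bar, 18 sites, and T47D ER with both hormones is the 1 list whose bar, 6 sites, ends left of its diamond at 9.0.

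How many of the 5 genes a list reached also differed. All 5 had sites of the reChIP and of each list of PR-deficient cells. Such lists had a site in 35.2% of tiles for the reChIP, and in 35.3%, 30.4% and 29% for PR-deficient ER with E2, R5020 and both. T47D ER reached 3 genes with E2 (23.4% of tiles), 4 with R5020 (21.6%) and 4 with both hormones (73.9%). PR reached 4 with E2 (34.3%), 3 with R5020 (26.5%) and 4 with both (40.1%). FOXA1 had no PR site under any treatment and no T47D ER site with E2. GATA3 had no T47D ER site with E2. ELF5 had no PR site with R5020, and no T47D ER site with R5020 or with both hormones. TFAP2C and SPDEF had sites of all 10 lists, as had 2.32% of tiles.

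The genes differed in how densely they were covered. TFAP2C had 32 sites, SPDEF 26, GATA3 19, FOXA1 14 and ELF5 11, against a median of 4 and a mean of 8.24 per tile. As many sites or more were found in 4.6%, 6.65%, 10.7%, 15.9% and 20.6% of tiles, in that order. Overlapping sites were merged to regions, which gave 66, of which 47 (71.2%) came from 1 list, 11 from 2 lists and 8 (12.1%) from 3 or more. Over all 64490 merged regions of the 10 lists, 80.4% came from 1 list and 7.95% from 3 or more. By position, 46 sites lay downstream, 33 upstream, 18 in the gene span and more than 1 kb from the start, and 5 within 1 kb of the start. The spans make up 8.22% of the windows, and 22 sites (21.6%) overlapped a span. Of the 5 sites within 1 kb of a start, PR-deficient ER gave 4 and the reChIP 1. None of the 16 T47D ER sites and none of the 34 PR sites lay there. How often each whole list lies near gene starts was not counted. PR-deficient ER gave 43 of all 102 sites, with medians of 1155.5 bp for E2 and 1601 bp for both hormones. Medians were 1563 bp for T47D ER with E2 and 153.5 to 274.5 bp for PR. The part of site number and length was not tested. With 3 sites taken as the limit that a count of 0 allows, the limits are 18.8% of T47D ER sites and 8.82% of PR sites. These limits cover counting error over sites only, and sites are not replicates.

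**Figure D2:**
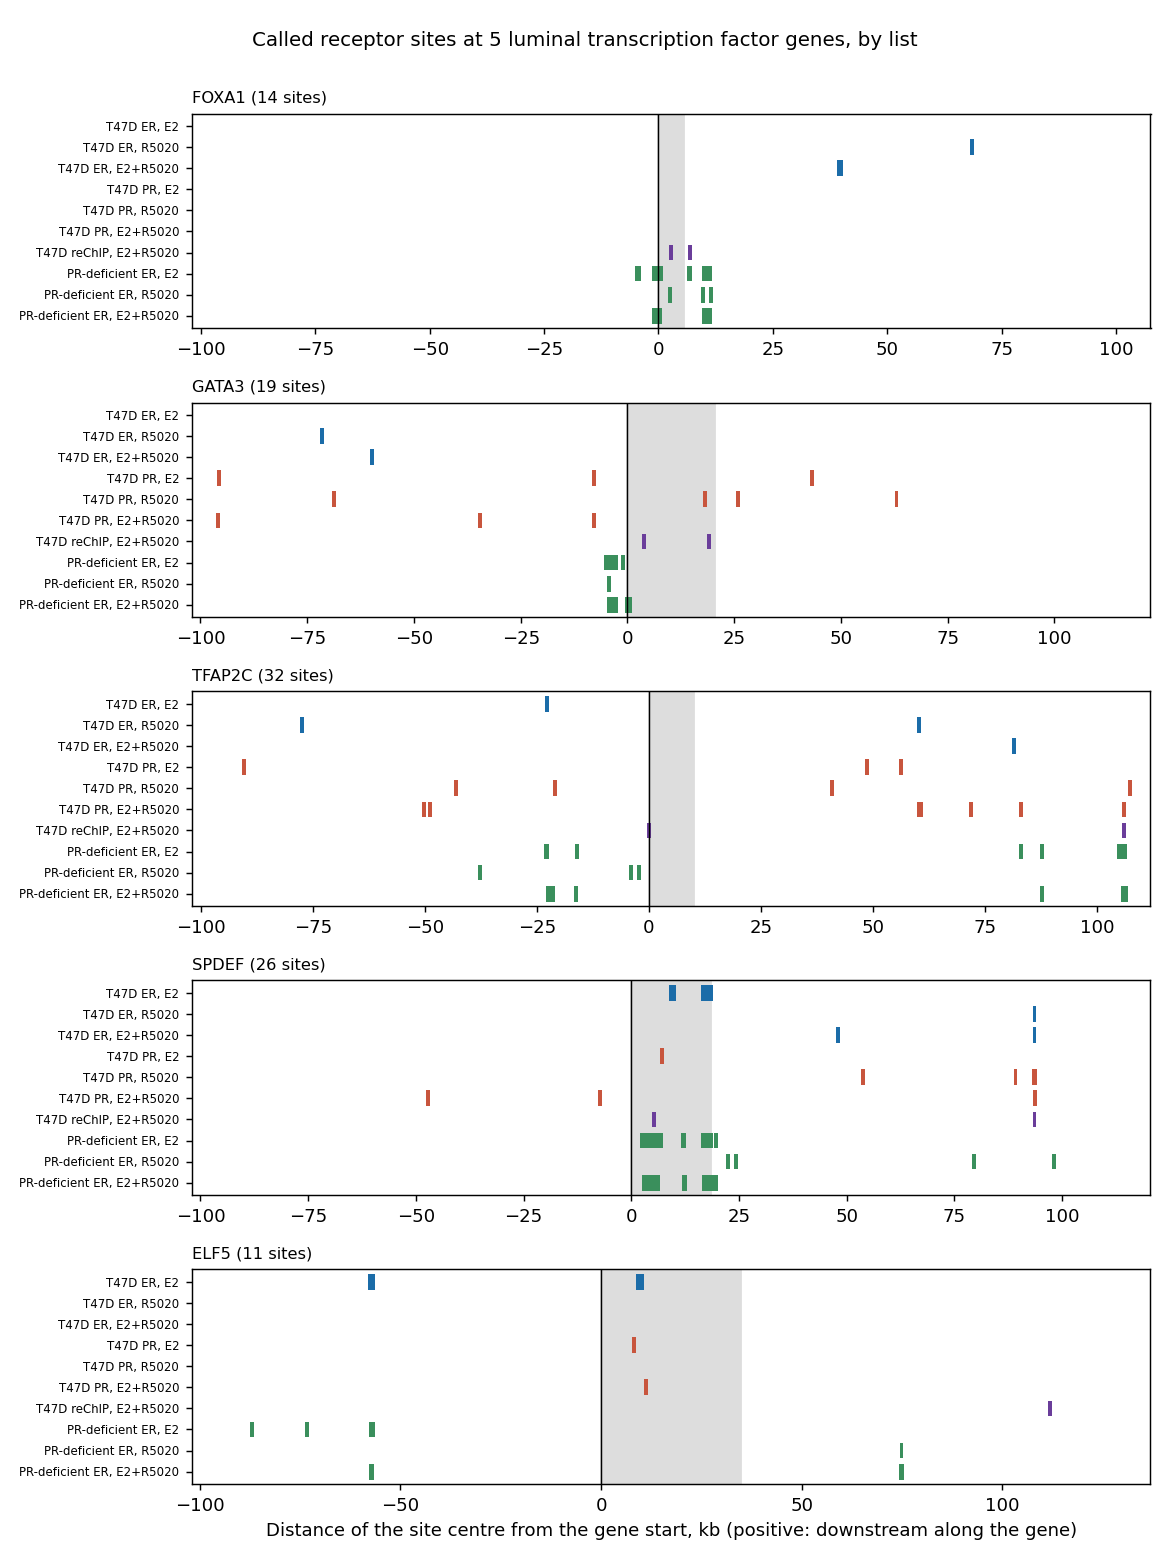
Each row is a list and each bar a called site, placed by the distance of its centre from the gene start in kb, positive along the gene; grey marks the gene span and sites under 0.9 kb are drawn 0.9 kb wide. Green bars (PR-deficient ER) lie over or next to the starts of FOXA1 and GATA3, and blue bars (T47D ER) are farther away at both. Red bars (PR) are farther away at GATA3 and absent at FOXA1, and purple is the reChIP.

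At FOXA1, ER of PR-deficient cells sat on and around the gene, and ER of T47D cells lay 39.5 kb or more away. The site over the start was listed with E2 at chr14:38063462-38065837 and with both hormones at chr14:38063485-38065834, and not with R5020. By the authors' score, 83.2% of the sites of the E2 list and 84.9% of the list of both hormones were lower. A region of 2379 bp centred 10.7 kb downstream of the start, chr14:38052483-38054861, was listed in PR-deficient cells with each of the 3 treatments. There R5020 gave 2 narrow sites, of 171 and 236 bp, inside the wide E2 site of 2193 bp. The second of these was the R5020 member that stood highest in its list, at rank 669 of 9141. Further E2 sites lay 6.7 kb downstream, and 4.5 kb upstream at the lowest score kept.

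The reChIP list had 2 sites at FOXA1, 2.7 and 6.8 kb from the start. The nearer one, chr14:38061455-38061706 inside the gene, overlapped an R5020 site of PR-deficient cells, and the other, chr14:38057249-38057768 just past its end, an E2 site of those cells. The nearer reChIP site had only 1.46% of its list lower, and the R5020 site there stood at the lowest score kept. The other reChIP site had 65.5% of its list lower, and the E2 site there 39%. Neither reChIP site overlapped an ER or PR site of T47D, the line the reChIP was made in. T47D ER was listed 68.6 kb downstream with R5020 and 39.5 and 39.8 kb downstream with both hormones. This is the side of MIPOL1, the next protein-coding gene in RefSeq, whose position was not compared with these sites. The R5020 site ranked 608 of 5338 and the site of both hormones at 39.8 kb 1944 of 19220, the highest of any site of these lists in the 5 windows. The site at 39.5 kb, which does not touch the latter, ranked 9503 of 19220, with 30.4% of its list lower. At GATA3 a site of the R5020 list tied for rank 608.

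At GATA3, the lines again differed in where ER was listed. PR-deficient ER had a region 3.9 kb upstream, chr10:8091194-8094436, with all 3 treatments. Its E2 site was 3214 bp long with 82% of its list lower, its site of both hormones 2512 bp with 65.6% lower, and its R5020 site 260 bp at the lowest score kept. A site of both hormones covered the start itself (chr10:8096184-8097717, 48.5% of its list lower). The E2 list had a weak site ending 591 bp before the start, chr10:8095221-8096076, at the lowest score kept. T47D ER had a site 71.5 kb upstream with R5020 and 1 at 59.9 kb upstream with both hormones, the latter higher than only 9.54% of its list.

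PR was spread over the GATA3 window in 10 sites. A region 7.8 kb upstream, chr10:8088789-8089017, was listed with E2 and with both hormones. The E2 site there ranked 57 of 7961, and no other E2 site of PR in the 5 windows stood higher. With both hormones the same place had 37.8% of the list lower. A second region of the same lists lay 95.8 kb upstream, at the edge of the window. R5020 gave 4 PR sites, 68.8 kb upstream, 18.1 kb from the start inside the gene, and 25.8 and 63 kb downstream. None of them overlapped a site of another list. The site at 63 kb ranked 181 of 6358. The reChIP had 2 sites inside GATA3, 3.9 and 19.2 kb from the start, chr10:8100285-8100784 and chr10:8115614-8116054, and neither overlapped a site of another list.

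TFAP2C had the most sites. Among sites in the 5 windows, it held the highest-ranking ER site of 3 lists: E2 in T47D, and E2 and both hormones in PR-deficient cells. The region chr20:55181019-55183387, 22.2 kb upstream, was listed for ER with E2 in both lines, for ER with both hormones in PR-deficient cells, and for PR with R5020. The E2 site ranked 255 of 7742 in PR-deficient cells and 731 of 4014 in T47D, and the latter was the highest T47D E2 site of the 5 windows. The PR site, chr20:55183236-55183387, overlapped the PR-deficient site of both hormones at its end and neither of the E2 sites. T47D ER with both hormones was not listed in this region.

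A second TFAP2C region, chr20:55308835-55311227, lay 105.7 kb downstream, on the side of BMP7. It was listed for PR-deficient ER with E2 (rank 153 of 7742, the highest of that list in the windows) and with both hormones (rank 292 of 5663), for the reChIP (71.6% of its list lower) and for PR with both hormones, at the lowest score kept. The highest rank of PR-deficient ER with both hormones in the 5 windows, 268 of 5663, was in the upstream region. Over the start of TFAP2C lay a reChIP site, chr20:55204201-55204748, which ranked 1447 of 9861 and was the highest reChIP site of the 5 windows. No ER or PR site of any list overlapped it. The nearest were R5020 sites of PR-deficient ER 2.2 and 3.9 kb upstream, both at the lowest score kept.

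PR had 14 sites at TFAP2C, 3 with E2, 4 with R5020 and 7 with both hormones. T47D ER and PR met at 60.6 kb downstream, chr20:55264565-55265270, where an ER site of R5020, at the lowest score kept, overlapped 2 PR sites of both hormones that did not touch each other. Of the 32 TFAP2C sites, 12 stood at the lowest score of their list. Over whole lists, the share of sites at the lowest score ran from 0.395% (T47D ER with both hormones) to 58.5% (PR with E2). The share over all lists together was not counted, so this count is a description only.

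At SPDEF the regions of 3 or more lists lay in the gene, with PR-deficient ER and E2 lists, and at the far end of the window, with R5020 lists of T47D. The region chr6:34503969-34507986, at the end of the gene 18.1 kb from the start, was listed for ER with E2 in both lines and with both hormones in PR-deficient cells. In T47D the E2 site had 56.1% of its list lower. In PR-deficient cells the 2 E2 sites had 63.8% and 81.1% lower, and the site of both hormones 73.4%. A region of 5335 bp, chr6:34516606-34521940, 4.8 kb from the start, was listed in PR-deficient cells with E2 (rank 674 of 7742) and both hormones (748 of 5663). It also held a PR site of E2, at the lowest score kept, and a reChIP site, with 1.46% of its list lower. A further region 12.3 kb from the start was listed in the same lists of PR-deficient cells.

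The region chr6:34430069-34430839, 93.7 kb downstream of the SPDEF start, was listed in 5 lists, more than any other region of the 5 windows. It lies on the side of PACSIN1, and whether it lies before, in or past that gene was not determined. The 5 lists were T47D ER with R5020 and with both hormones, PR with R5020 and with both hormones, and the reChIP. The PR site of both hormones ranked 5 of 11908, with 99.9% of the list lower, and the higher of 2 PR sites of R5020 ranked 86 of 6358, the highest of either list in the 5 windows. ER stood lower there: 46.3% of its list was lower with R5020 and 66.1% with both hormones, and the reChIP site had 38.4% lower. The place was in neither E2 list of T47D and in no list of PR-deficient cells. ER of PR-deficient cells with R5020 had sites at 22.5, 24.3, 79.5 and 98.2 kb downstream, each in that list alone.

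ELF5 had the fewest sites. The region chr11:34591753-34593315, 57.2 kb upstream on the side of EHF, was listed for ER with E2 in both lines. There 70.7% of the T47D list and 84.6% of the PR-deficient list were lower. It was also listed for PR-deficient ER with both hormones (36.5% lower). Inside the gene, 3 lists of T47D each had a site within 4 kb of the others, and none of the 3 overlapped: PR with both hormones 11.2 kb from the start, ER with E2 9.7 kb, and PR with E2 8.2 kb, at the lowest score kept. The last, chr11:34526978-34527354, was the nearest site to the ELF5 start in any list. PR-deficient ER with R5020 and both hormones shared a region 74.9 kb downstream, on the side of CAT. Whether that region lies before, at or past CAT was not determined. The E2 list of those cells had 2 further sites upstream, at 73.2 and 87 kb, and the reChIP 1 site 111.9 kb downstream.

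**Figure D3:**
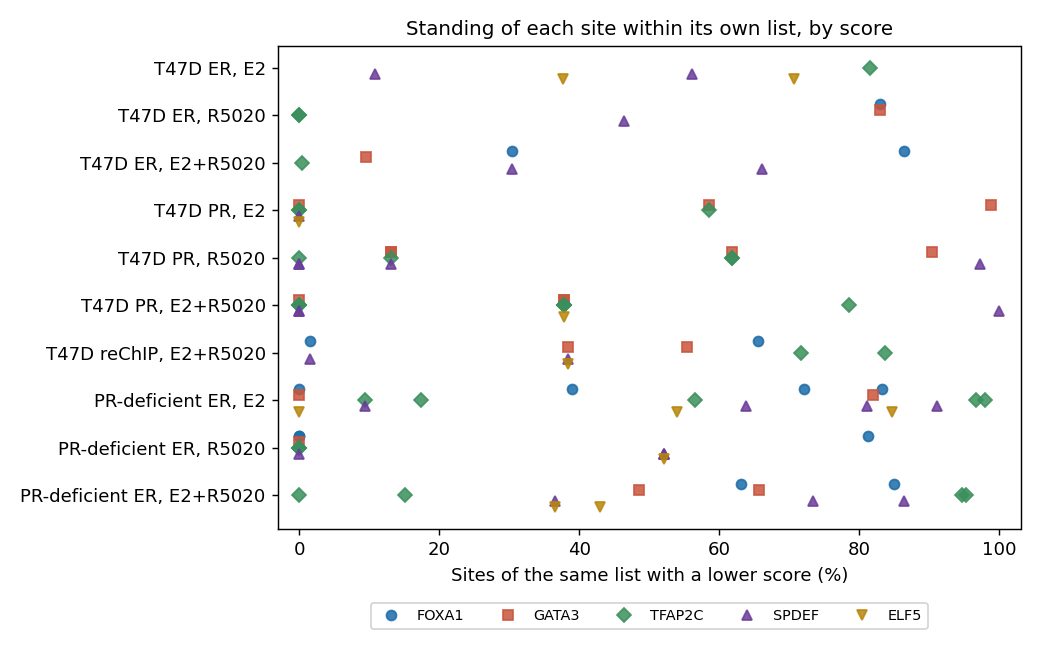
Each point is a site at one of the 5 loci, by the percentage of the sites of its own list with a lower score (x axis), in rows by list, with marker and colour by gene. The SPDEF point of PR with E2+R5020 stands at 99.9%, the GATA3 point of PR with E2 at 98.8%, and points at 0 have the lowest score of their list.

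Sharing between lists was counted as an overlap of 1 bp or more, with exact Clopper-Pearson 95% intervals that cover counting error over sites only. Of the T47D ER sites with E2, 3 of 5 were listed for ER with E2 in PR-deficient cells (60%, interval 14.7 to 94.7), beside 54.9% of the whole list. In the higher-scoring 50% of each list it was 3 of 3 (100%). They are the sites named at TFAP2C, SPDEF and ELF5. None of the 5 was listed in T47D with both hormones (0%, interval 0 to 52.2, and up to 60% by the 3-count limit), beside 19.5% of the whole list. In PR-deficient cells, 12 of the 18 E2 sites were listed with both hormones (66.7%, interval 41 to 86.7), beside 55.5% of the list. This share was 33.3% where the centres had to lie within 200 bp. In the reverse direction it was 11 of 13 (84.6%, interval 54.6 to 98.1), beside 75.4%. The lists compared within a line have a subtracted vehicle library in common, so these shares are descriptions only.

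ER sites of T47D overlapped PR sites at SPDEF and TFAP2C. Of the 5 ER sites of R5020, 1 lay at a PR site of R5020 (20%, interval 0.505 to 71.6; 8.28% of the list), at SPDEF. At PR sites of both hormones lay 2 of the 5 (40%, interval 5.27 to 85.3; 18.5% of the list), at SPDEF and 60.4 kb downstream of TFAP2C. With both hormones, 1 of 6 ER sites lay at a PR site (16.7%, interval 0.421 to 64.1; 5.16% of the list) and 1 of 6 at a reChIP site (10.3% of the list). Both are the SPDEF region at 93.7 kb. Of the 12 PR sites of R5020, 2 were listed with both hormones (16.7%, interval 2.09 to 48.4; 14.1% of the list), both at that place. With windows of 50 kb on each side, which leave that region out, this share and both shares of ER with both hormones were 0%. Of the 8 PR sites of E2, 2 were listed with both hormones, each at GATA3 (25%, interval 3.19 to 65.1; 12.2% of the list). The PR lists also have a subtracted vehicle library in common. Of the 9 reChIP sites, 1 overlapped a T47D ER site (11.1%, interval 0.281 to 48.2; 23.6% of the list), 2 a PR site (22.2%, interval 2.81 to 60; 13.8%) and 4 an ER site of PR-deficient cells (44.4%, interval 13.7 to 78.8; 23.7%). In turn 4 of the 18 E2 sites of PR-deficient cells overlapped a T47D ER site of any treatment (22.2%, interval 6.41 to 47.6), beside 37.4% of the list. Every interval held the value of the whole list.

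**Figure D4:**
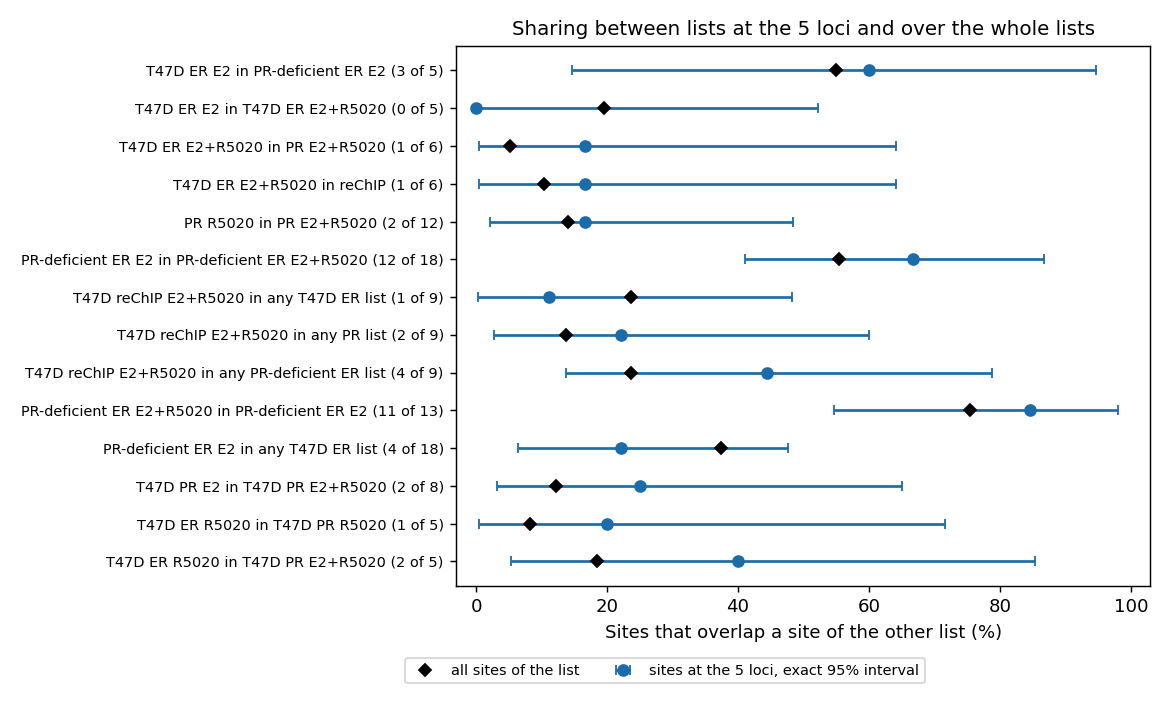
Percentage of the sites of a list that overlap a site of another list (x axis), for each pair of lists (y axis); circles with bars are the sites at the 5 loci with exact 95% intervals, and diamonds all sites of the list. In each of the 14 rows the bar holds the diamond.

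Of the 19 regions in 2 or more lists, 7 (36.8%) came from PR-deficient cells alone, 4 (21.1%) from T47D alone and 8 (42.1%) from both lines. Over all 12624 such regions of the series, these shares were 18.0%, 37.8% and 44.1%. The E2 list and the list of both hormones of PR-deficient cells were present together in 11 of the 19 (57.9%), and in 33.3% over the series. Of the 9 regions with a reChIP site, 4 (44.4%) were in no other list, beside 59.0% over the series. Of the 47 regions in 1 list, 21 (44.7%) were of PR, 12 (25.5%) of PR-deficient ER and 10 (21.3%) of T47D ER, where the series had 36.3%, 15.6% and 37.3%. These values are a description, since neighbouring sites are not replicates.

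Site length and score bear on these values. At the 5 loci the median site was 1155.5 bp for PR-deficient ER with E2, 1601 bp with both hormones and 1563 bp for T47D ER with E2, and between 153.5 and 469 bp in the other lists. Of the PR-deficient R5020 sites, 7 of 12 stood at the lowest score kept, as did 52.1% of that list, and 5 of 8 PR sites of E2 (58.5% of the list). The same held for 6 of 14 PR sites of both hormones (37.8%) and 2 of 5 T47D ER sites of R5020 (46.3%). It held for 3 of 12 PR sites of R5020 (13.1%) and 3 of 18 PR-deficient ER sites of E2 (9.39%). Among PR-deficient ER sites of both hormones it held for 1 of 13 (15.1%), and in the remaining lists for none at these loci. The part of length and threshold in the differences between lists was not tested.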

How the data were processed

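ER, PR and ER-PR reChIP binding was measured in 26 libraries, 1 per group as mapped from the titles. Of these, 10 had a list of sites, and the other 16 (vehicle, IgG and input) were not used here. Per the submitters' processing notes, Bowtie2 and MACS were used on hg19, and versions and settings are not given in the sources used here. Vehicle, and IgG for the reChIP, had been subtracted from each deposited list, per the labels, which do not say how. Scores are the authors' deposited values per site, of unstated unit. It rises in steps of 0.582 to 8.66 that differ between lists, so scores were ranked within a list only. A position counts from 1.

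Sites were assigned to loci, merged and compared with pandas 2.3.3, SciPy 1.17.1 and NumPy 2.4.6 under Python 3.11.15, and drawn with matplotlib 3.10.9. The counting was tested on simulated data with known overlap. Gene starts are the ends of the hg19 spans by strand. Strands came from RefSeq promoters, and for TFAP2C from general knowledge. All 5 symbols matched the RefSeq table (GRCh38.p14), which gave neighbour names only, and 4 matched its promoters. Neighbour positions were not compared with the sites, so a site on the side of a neighbour may lie before, within or past it. Members and lists were chosen with earlier results of these data known. Named sites are the regions in 3 or more lists, the site nearest each start, and the highest-ranking site of each list within the 5 windows. Others in the text were chosen after their values were seen. The reChIP shares, the shares within PR-deficient cells in reverse and with T47D ER, the PR share of E2, the ER shares of R5020 and the makeup of all merged regions were also added after the data were seen. Alternatives were 50 or 200 kb flanks, a lowest score raised by 1 step, the higher-scoring 50% of each list, 3 other overlap rules and, added later, sites trimmed to 200 bp.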

Additional observations from a re-analysis of the deposited data

How the results depend on the processing

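No paired analysis was possible because every condition was measured in 1 library. The 102 sites became 64 with 50 kb on each side, 205 with 200 kb and 50 in the higher-scoring 50% of each list. The 66 regions became 43, 125 and 33, and the 19 regions in 2 or more lists 12, 35 and 9, in that order. By construction these settings hold less or more sequence, or fewer sites. With 50 kb, the shares of ER sites of both hormones at PR and at reChIP sites (3 sites) and of R5020 PR sites listed with both hormones (7 sites) were each 0%, since the SPDEF region at 93.7 kb was left out. The last share was also 0% where 50% of both sites had to overlap. The 2 shared R5020 sites, of 310 and 156 bp, lie in the same 771 bp site of both hormones. Neither can cover 50% of that site. T47D ER sites of E2 listed in PR-deficient cells came to 100% (3 sites) in the higher-scoring 50%. PR-deficient E2 sites listed with both hormones came to 33.3% with centres within 200 bp; the cause was not tested. Raising the lowest score by 1 step took TFAP2C from 32 to 20 sites, PR from 8 to 3 with E2 and 14 to 8 with both hormones, and R5020 ER from 5 to 3 in T47D and 12 to 5 in PR-deficient cells. The other 6 lists and 4 loci stayed within 1.5 times. Merging within 500 bp gave 61 regions and trimmed sites, added after the data were seen, 80. Read depth is not stated, and the labels do not say how vehicle was subtracted. A place without a site may have been below the authors' threshold or removed by that subtraction. These cannot be told apart here.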

Other observations

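The band from 100 to 200 kb around ELF5 held more sites than its window, 57 against 11 within 100 kb. Of the 57, 31 lay upstream, on the side of EHF, a related ETS factor, and 26 downstream, on the side of CAT. Positions of EHF and CAT were not compared with the sites, so sites may lie within or past these genes. At the other genes the same band held 25 sites for TFAP2C, 14 for SPDEF, 5 for GATA3 and 2 for FOXA1. Of the 31 upstream sites, PR-deficient ER gave 15, PR 8, T47D ER 5 and the reChIP 3. They formed 11 regions. One at chr11:34660831-34662536, about 126 kb from the ELF5 start, was listed in 7 lists: ER of PR-deficient cells with each treatment, T47D ER with R5020, PR with R5020 and with both hormones, and the reChIP. No region within 100 kb of the 5 genes was in more than 5 lists. A region at chr11:34654944-34656708 was in 5 lists, and 1 next to it at chr11:34652070-34654935 in 4. These regions were chosen after their values were seen. Over all 64490 merged regions of the series, 7.95% were in 3 or more lists. How many were in 7 or more was not counted, nor how many stretches of this size held 57 sites or more. How unusual this band is over the series is therefore not known.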
